A study of Rattus norvegicus with 6 samples.

Results

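The 10 genes described here encode the alpha subunits of heterotrimeric G proteins that carry the signal of the C3a receptor or of the receptors that act beside it in the heart (Gnai1, Gnai2, Gnai3, Gnaq, Gna11 and Gnas), and the beta class of phospholipase C that the G proteins switch on (Plcb1, Plcb2, Plcb3 and Plcb4). They are 10 of the 16569 genes that the array names through a matched transcript accession. The members were chosen by symbol, and each gene is represented by its brightest probe over all arrays, so the brightness of a representing probe was used in the choice and is given only as a description. In all, 18 probes carried a member's accession. All of them are accounted for below.

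The cells were primary neonatal rat ventricular cardiomyocytes (NRVCs) prepared from the pooled ventricles of 8 to 10 rats aged 1 to 2 days, kept in serum-free medium according to the sample records. The methods give a short starvation in low serum before stimulation. Recombinant C3a at 0.5 µg/ml was added for 12 h to the C3a group, and the control group received none. Each group had 3 samples, numbered 1 to 3, and each sample was labelled with the dye Cy3 and hybridised to its own Agilent SurePrint G3 Rat array. The records do not say whether the 3 samples of a group came from separate cell preparations, so the p-values measure only the spread between these samples, which may be technical.

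C3a is the small peptide released when complement C3 is cleaved, and its receptor C3aR is a G protein-coupled receptor best known for coupling to the pertussis toxin-sensitive Gi proteins, which inhibit adenylyl cyclase and release beta and gamma subunits. Those subunits activate Plcb2 and Plcb3, whereas the Gq proteins activate the phospholipase C beta enzymes through their alpha subunit, and the enzymes then split a membrane lipid into inositol trisphosphate (IP3), which releases calcium, and diacylglycerol, which activates protein kinase C. In the heart, Gq and phospholipase C beta are known for carrying the hypertrophic signals of endothelin, angiotensin and alpha-adrenergic receptors, and Gs carries the beta-adrenergic signal through cAMP.

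All 6 arrays lay on 1 slide, with the controls in one column and the C3a arrays in the other, so position on the slide and treatment cannot be told apart. Control replicate 1 stood apart: 38.6% of its probes were well above background, against 55.8% to 57.3% on the other controls and 53.7% to 54.7% on the C3a arrays, and its median local background was 47 intensity units against 23 to 24. All 12 cardiomyocyte markers examined were well above background on all 6 arrays. Their summed signal, in multiples of the 75th percentile of each array, ranged from 5220.2 to 6764 in the controls and from 6487 to 7336 with C3a. The corresponding ranges were 98.8 to 112 and 97.7 to 114 for 10 fibroblast markers, of which 7 were well above background on all 6 arrays, 34.0 to 46.6 and 42.9 to 54.3 for 8 endothelial markers (6 on all arrays), and 101 to 121 and 103 to 119 for 8 smooth muscle markers (6 on all arrays). They were 9.91 to 12.9 and 10.7 to 11.5 for 12 macrophage and leukocyte markers, of which 4 were on all arrays, and C1qa and Cd163 on none. For red cell markers they were 26.8 to 28.5 and 25.3 to 38.4, with 2 of 3 on all arrays. Their part in the differences below was not tested, and in bulk RNA fewer cells of a type cannot be told apart from less RNA per cell.

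Signals are given on a log2 scale relative to each array's 75th percentile, so that 0 is the brightness exceeded by 25% of the probes. A probe was called detected where the scanner software put it well above background, and differences are log2 values with C3a minus those without. No probe of the 23438 tested passed an adjusted p of 0.05 by limma (0%, with 0.697 the lowest value). Before adjustment, 1364 probes (5.82%) had a limma p under 0.05, 783 of them higher and 581 lower with C3a. The excess of higher probes was not stable: the counts were 565 and 725 when the percentile was taken over the probes detected on all 6 arrays, and 370 and 639 when those probes alone were tested.

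The Gi proteins that couple the C3a receptor were represented by Gnai2 and Gnai3, both detected on every array, whereas Gnai1 was detected on none. Of the Gq proteins, Gnaq and Gna11 were detected on 5 of 6 arrays, missing only control replicate 1, the array with the higher background. Gnas was detected on all 6 arrays. Of the phospholipases, Plcb3 and Plcb4 were detected on all 6 arrays, Plcb2 on none, and Plcb1 on a single C3a array. The differences between C3a and control were small, and 0 of the 7 members with a tested representing probe passed the threshold, either after adjustment (adjusted p by limma between 0.743 and 0.760) or before it, where 5.33% of the 10386 genes tested were called. Of these 7, 6 had a positive difference and 1 a negative one, with a median of 0.17 against 0.036 over all genes tested, of which 6297 lay above 0 and 4089 below. These signs rest on the scaling, since all 7 differences were negative after scaling to spike-in probes, where the median probe also moved to -0.40.

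**Figure D1:**
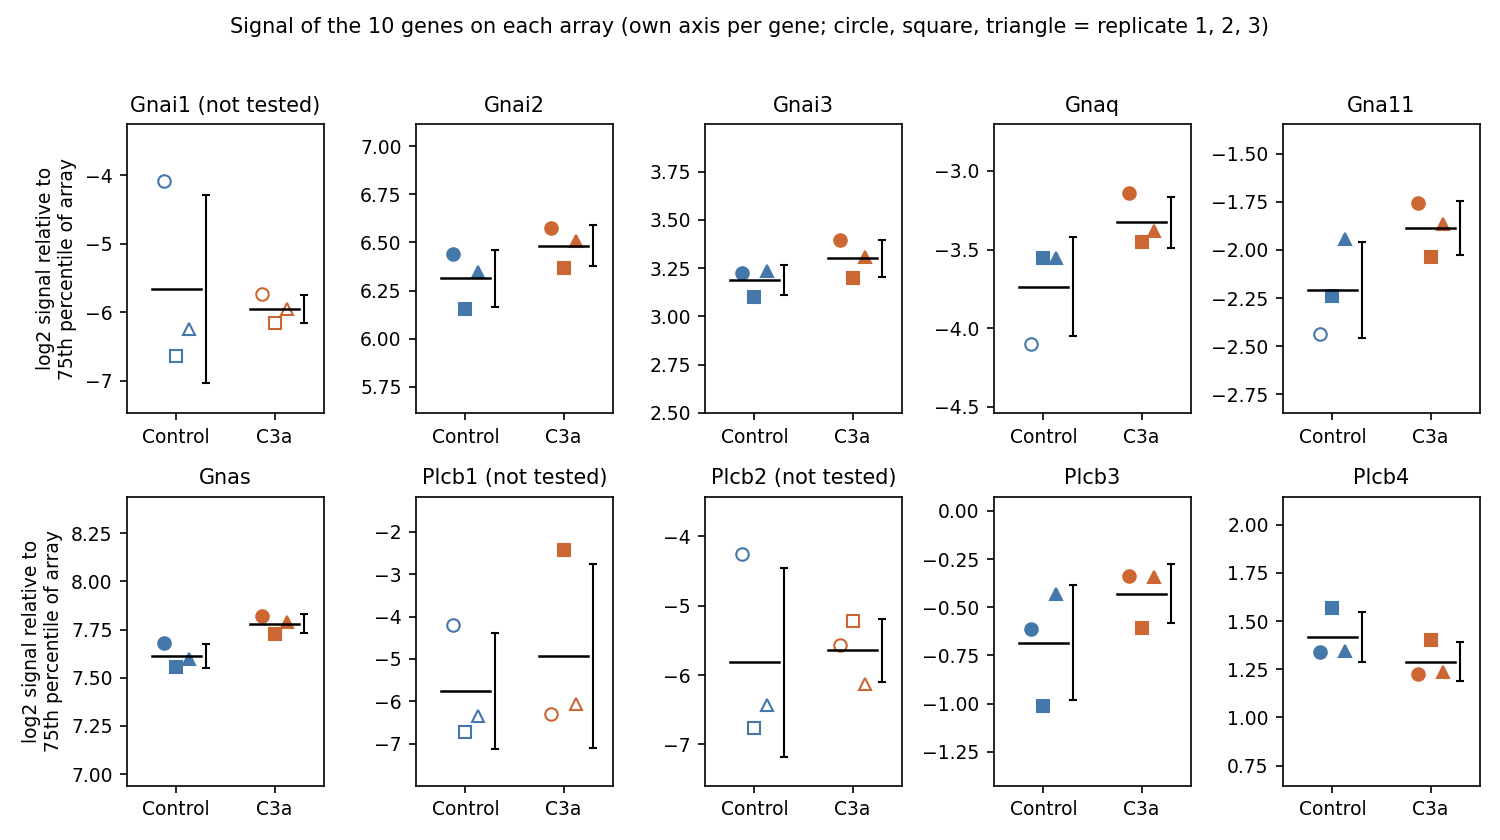
Signal of the representing probe of each member on every array (vertical axis, log2 signal relative to the array's 75th percentile, one axis range per gene), with controls on the left and C3a on the right of each panel. Circles, squares and triangles are replicates 1, 2 and 3, open symbols mark arrays on which the probe was not well above background, black lines are means and bars are SD (n = 3); Gnai1, Plcb1 and Plcb2 have almost only open symbols, and the control circle is open for Gnaq and Gna11.

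Gnai2 encodes an inhibitory alpha subunit abundant in the heart. Its brighter probe, A_44_P1164151, read 6.44, 6.15 and 6.35 in control replicates 1 to 3 and 6.58, 6.37 and 6.51 in C3a replicates 1 to 3. The C3a array was above the control array of the same number in all 3 pairs, but the groups overlapped, since control replicate 1 lay above C3a replicate 2. The mean was 6.31 ± 0.15 (SD, n = 3) without and 6.48 ± 0.10 with C3a. The difference of 0.17 had a standard error of 0.11 and a 95% interval of -0.10 to 0.44, and did not pass the test (adjusted p = 0.743 by limma). The second Gnai2 probe, A_64_P320566, gave nearly the same reading, with a difference of 0.15 (standard error 0.11, adjusted p = 0.745 by limma).

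Gnai3, a closely related inhibitory subunit, was read by a single probe. The signal was 3.23, 3.10 and 3.24 in the controls and 3.39, 3.20 and 3.31 with C3a. Again each C3a array was above its numbered control, by 0.17, 0.099 and 0.070, and the groups overlapped. The difference of 0.11 had a standard error of 0.10 and an interval of -0.12 to 0.35 (adjusted p = 0.760 by limma). Gnai1, the third inhibitory subunit of this kind, gave intensities between 3.33 and 4.32 units on the C3a arrays and on both control arrays of low background 3.54 and 3.69, with 16.0 units on control replicate 1. None of these was well above background, so no fold is given.

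Gnaq encodes the alpha subunit that gives the Gq class its name. The probe read -4.10, -3.55 and -3.55 in the controls and -3.14, -3.45 and -3.39 in the presence of C3a. The groups did not overlap, with every C3a array above every control array, and the lowest value was that of control replicate 1, where the probe was not well above background. The mean was -3.74 ± 0.32 in controls and -3.33 ± 0.16 with C3a (SD, n = 3). The difference of 0.41 had the largest absolute moderated t among the representing probes (standard error 0.18, interval -0.0045 to 0.82), and did not pass the test (unadjusted p = 0.0519, adjusted p = 0.743 by limma). By pairs of equal number it was 0.96, 0.10 and 0.17, so that pair 1 carried most of it, and without control replicate 1 the difference was 0.23 (adjusted p = 0.675 by limma). Leaving out control replicate 2 or 3 instead gave 0.50 in both cases, with unadjusted p of 0.0409 and 0.0393 by limma. Gnaq and Gna11 entered the test only through the C3a arrays, where they read higher, and neither was tested among the probes detected on all 6 arrays, so their differences and p-values are a description that the filter favours.

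Gna11, the close relative of Gnaq that activates the same phospholipases, had a like pattern. The probe read -2.44, -2.24 and -1.94 in the controls and -1.76, -2.03 and -1.87 with C3a. Control replicates 1 and 2 lay below all C3a arrays, control replicate 3 lay among them, and control replicate 1 was again not well above background. The difference was 0.32 with a standard error of 0.15 and an interval of -0.03 to 0.67 (adjusted p = 0.743 by limma). It was 0.68 in pair 1 and 0.21 and 0.077 in the others. Without control replicate 1 the difference was 0.21, and without control replicate 3 it was 0.45 (unadjusted p = 0.0167, adjusted p = 0.476 by limma).

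Gnas encodes the stimulatory alpha subunit, which activates adenylyl cyclase. The locus is complex and also gives rise to longer and to unrelated proteins through other first exons. The array held 4 Gnas probes, for 3 different transcript accessions. The brightest, A_64_P139412, read 7.68, 7.56 and 7.60 in the controls and 7.82, 7.73 and 7.79 with C3a. The groups did not overlap, and the spread within each was narrow, with means of 7.61 ± 0.06 and 7.78 ± 0.05 (SD, n = 3). The difference of 0.17 had an interval of -0.05 to 0.38 and did not pass (unadjusted p = 0.105, adjusted p = 0.743 by limma). It depends on the scaling, being -0.017 after quantile normalization. Gnaq and Gnas were the only members among the 7 whose groups did not overlap, both higher with C3a, against 8.16% of all genes tested in that direction, and the narrow margins are visible in the plot of member signals.

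The other Gnas probes differed in size, and the faintest also in direction. A_44_P1370055 read 1.59, 0.53 and 1.46 in the controls and 1.87, 1.24 and 2.00 with C3a. Replicate 2 was the lowest of both groups, and the groups overlapped although the C3a array was higher within each pair, by 0.28, 0.71 and 0.54. Its difference was 0.51, and was 0.18 without control replicate 2 and 0.74 without C3a replicate 2. The standard error of the 0.51 was 0.32 without a block (unadjusted p = 0.152, adjusted p = 0.743 by limma). With the replicate number as a block it was 0.11, where the unadjusted p was 0.00556 and the adjusted p 0.225 by limma. A_44_P378484 gave 0.20 (standard error 0.15, adjusted p = 0.745 by limma). The faintest, A_44_P1081635, was detected on control replicates 2 and 3 and on no C3a array, so it was not tested and no fold is given. It read -4.42 (not detected), -4.32 and -3.83 in control replicates 1 to 3. With C3a it read -4.96, -5.67 and -5.60, none of them detected.

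**Figure D2:**
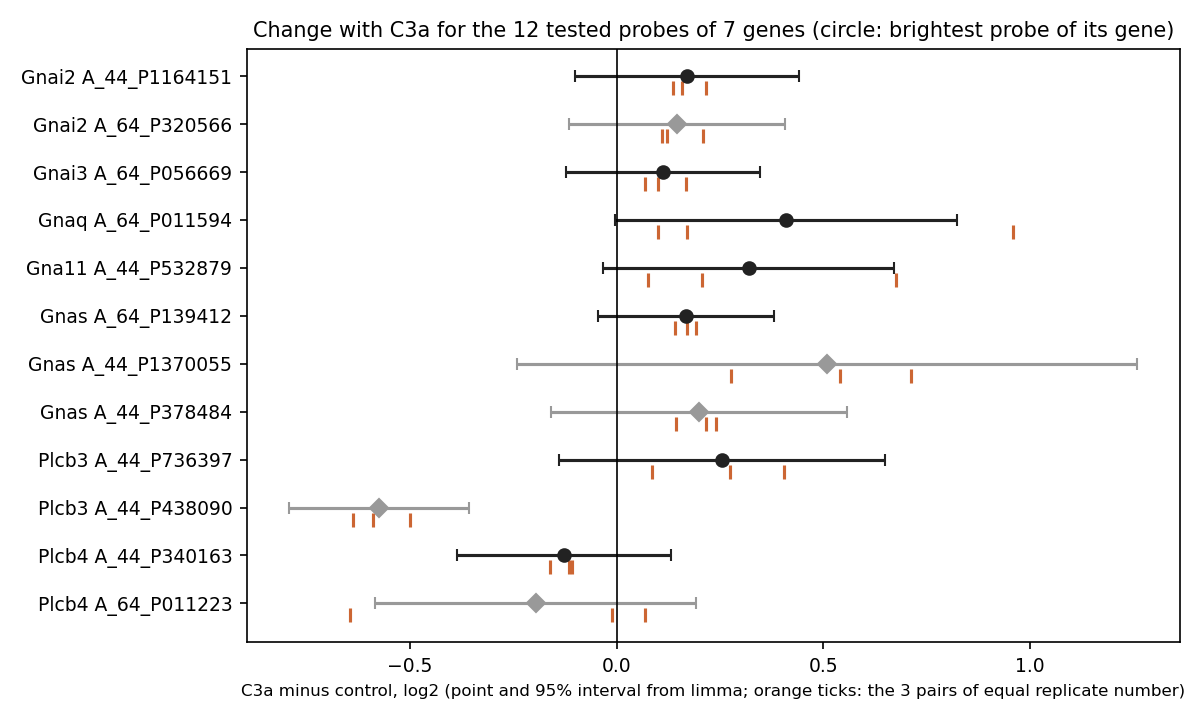
Difference with C3a minus control (horizontal axis, log2) for the 12 member probes that were tested, with the 95% interval of limma as a bar; circles are the probes that represent their gene, grey diamonds the further probes, and orange ticks the 3 differences between arrays of equal number. All intervals include 0 except that of the second Plcb3 probe, from -0.79 to -0.36, and the ticks of Gnaq and Gna11 are the most spread among the representing probes.

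Plcb3, a phospholipase C that responds to Gq alpha and to the beta and gamma subunits released from Gi, was read by 2 probes, and they differed in direction. The brighter probe, A_44_P736397, which carries the accession XM_006230711, read -0.61, -1.01 and -0.43 in the controls and -0.34, -0.61 and -0.34 with C3a. The groups overlapped. The difference was 0.26 (standard error 0.17, interval -0.14 to 0.65), with an adjusted p of 0.743 by limma, and it ranged from 0.092 without control replicate 2 to 0.38 without control replicate 3. In intensity units the probe gave 178, 182 and 200.03 in the controls and 182, 189 and 163 with C3a, and these unscaled values overlapped as well.

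The other Plcb3 probe, A_44_P438090, carries the accession NM_033350. It read -1.86, -1.99 and -1.96 in the controls and -2.50, -2.58 and -2.46 with C3a. All 3 C3a arrays lay below all 3 controls, and 4.46% of the probes tested had non-overlapping groups in this direction. The mean was -1.94 ± 0.07 without and -2.51 ± 0.06 with C3a (SD, n = 3), a difference of -0.58 with a standard error of 0.09 and an interval of -0.79 to -0.36, or a 1.49-fold lower signal. By pairs the difference was -0.64, -0.59 and -0.50. The unadjusted p of 0.000404 ranked 11 among the 23438 probes tested, and the adjusted p was 0.743 by limma, so the probe did not pass after adjustment (0.221 with the replicate block). Among the probes of the members it had the lowest p. It was listed because the rule asks for every Plcb3 probe. The members and tests were chosen with earlier results of these data known, so the p and rank of this probe are a description. The unscaled intensity was 74.96, 92.6 and 69.0 units in the controls and 40.7, 48.3 and 37.6 with C3a, which also did not overlap. Unscaled values favour a lower reading with C3a, since the median probe was at -0.28 without normalization. Each of the 6 arrays detected the probe. The sign was the same under all 18 alternatives run, with values from -1.02 to -0.23. The smallest was that after normexp background correction, with a standard error of 0.12 and an unadjusted p of 0.0944 by limma. With a variance trend the standard error was 0.17 and the unadjusted p 0.0054 by limma.

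The signal of the fainter Plcb3 probe relative to the brighter one within the same array is left as it is by any scaling that shifts all probes of an array alike, but not by the background correction: with normexp the differences of the fainter and the brighter probe were -0.23 and 0.18, closer together than -0.58 and 0.26. This log2 ratio was -1.25, -0.98 and -1.53 in the controls and -2.16, -1.97 and -2.12 with C3a. All C3a arrays lay below all controls, by 0.83 between the means of -1.25 ± 0.28 and -2.08 ± 0.10 (SD, n = 3). The exact two-sided permutation test gave p = 0.1, the smallest that 3 arrays against 3 allow, so this test cannot pass a threshold of 0.05. The ratio contains the fainter probe, whose groups were already separate, so the separation of the ratio is a description and no further support. In the other 5 probe pairs of the members (Plcb4, Gnai2 and 3 of Gnas) the exact permutation p was between 0.4 and 0.7. Those pairs are no test of the Plcb3 pair. With both Plcb3 probes averaged, the difference of the gene was -0.16 instead of 0.26, so the direction given to Plcb3 depends on the probe. The part of each transcript that the probes match was not analysed here.

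**Figure D3:**
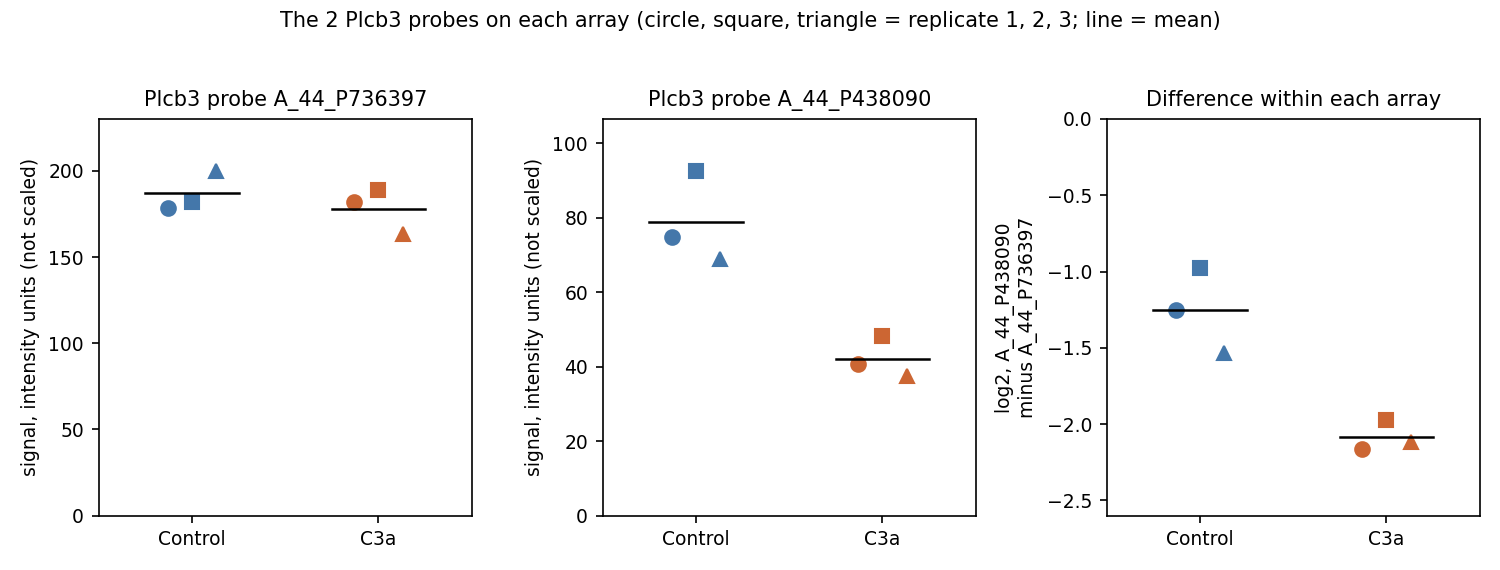
Unscaled intensity (linear units) of both Plcb3 probes on the 6 arrays, and the log2 signal of A_44_P438090 minus that of A_44_P736397 within each array; symbols are replicates as in the plot of member signals, and lines are means (n = 3). A_44_P438090 falls in separate ranges, 69.0 to 92.6 in controls and 37.6 to 48.3 with C3a, while A_44_P736397 overlaps. Unscaled, the median probe was also lower with C3a, by 0.28 in log2.

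Plcb4, a phospholipase C activated by Gq alpha, was the only represented member with a negative difference. Its brighter probe read 1.34, 1.57 and 1.34 in the controls and 1.23, 1.40 and 1.24 with C3a. The C3a array was the lower one in each pair, by 0.11, 0.16 and 0.11, but C3a replicate 2 lay above control replicates 1 and 3. The difference of -0.13 had a standard error of 0.11 and an interval of -0.39 to 0.13 (adjusted p = 0.758 by limma), and was -0.053 without control replicate 2. The second probe gave -0.20 (standard error 0.16, adjusted p = 0.756 by limma), with -0.64 in pair 2 and 0.068 and -0.012 in pairs 1 and 3, and was -0.045 without control replicate 2 and -0.33 without control replicate 1. The sign of Plcb4 was the same in all 19 alternatives run.

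Plcb1, the isoform tied to Gq signalling in cardiomyocytes, had 3 probes. The one with the highest mean was detected on C3a replicate 2 alone, at 53.2 intensity units against 2.94 to 14.9 on the other 5 arrays. Both further Plcb1 probes carry the same accession and were detected on no array, with 3.28 and 3.86 units on C3a replicate 2. No fold is given. Plcb2, the isoform of blood cells, went undetected throughout.

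How much the member differences follow from the scaling is shown by the comparison of 6 scalings. Without any normalization between arrays, the median probe moved to -0.28, and 6 of the 7 members were negative, Gnaq at 0.084 being the exception. Measured against the median probe, scalings that shift all probes alike give the same value by construction, which was 0.12 for Gnai2, 0.36 for Gnaq, -0.62 for the fainter Plcb3 probe and -0.18 for Plcb4. With quantile normalization the value relative to the median was 0.0013 for Gnai2 and 0.64 for Gnaq. With normexp it was 0.084 for Gnai2, 0.14 for Gnaq, -0.28 for the fainter Plcb3 probe and -0.17 for Plcb4.

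**Figure D4:**
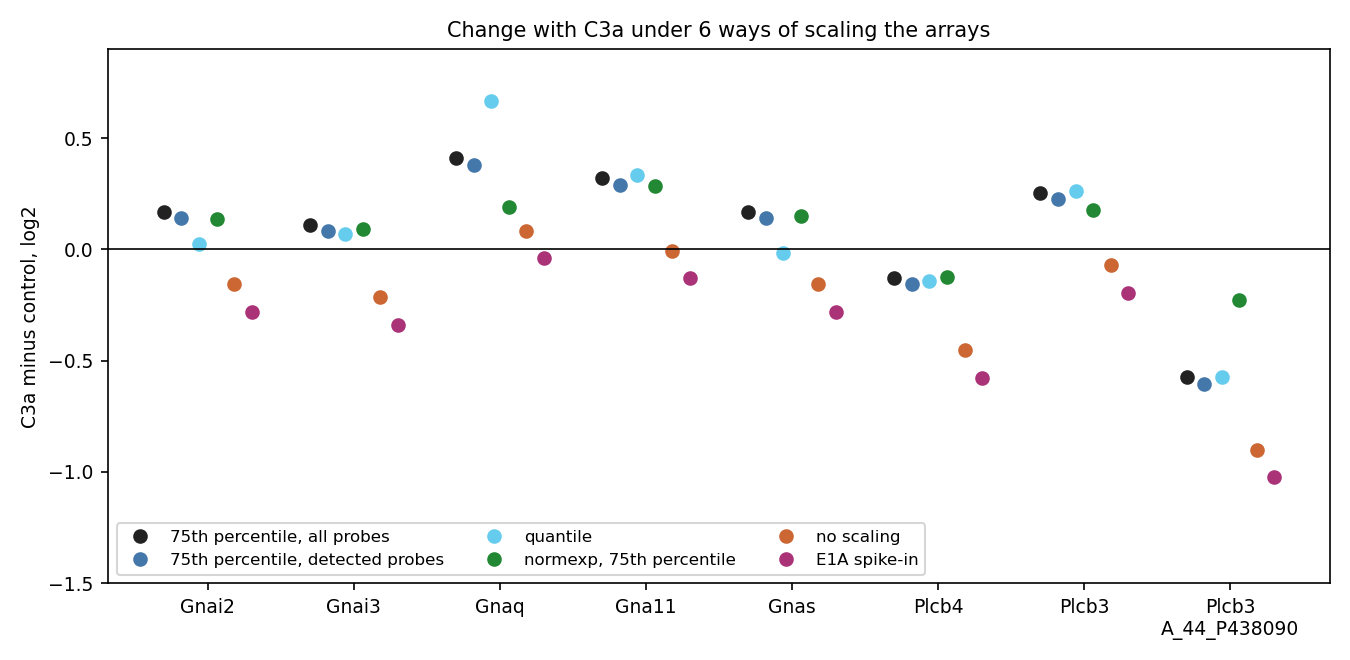
Difference with C3a minus control (vertical axis, log2) of the 7 tested members and of the second Plcb3 probe under 6 ways of scaling the arrays. The points shift together between scalings that move all probes of an array alike, but not under quantile normalization or normexp. The second Plcb3 probe stays below 0 in every scaling, from -1.02 with spike-in scaling to -0.23 with normexp. Under quantile normalization Gnas moves from 0.17 to -0.017 and Gnaq from 0.41 to 0.67.

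The rest of the pathway was read from lists of 109 further genes, of which 101 were on the array and 63 were tested. None passed the adjusted test by limma. At an unadjusted p under 0.05, 2 were higher and 2 lower by limma, beside 2.91% and 2.43% of all genes tested. With the replicate number as a block there were 4 higher and 3 lower, beside 5.81% and 6.05%. The differences of the 63 genes were above 0 in 41 and below in 22, with a median of 0.078, and like those of the members they are relative to the 75th percentile of the arrays.

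C3ar1, the receptor itself, was detected on all 6 arrays, with means of -2.08 ± 0.19 in controls and -1.99 ± 0.20 with C3a (SD, n = 3). The difference was 0.092 with a standard error of 0.14 (adjusted p = 0.851 by limma), and from 0.013 without control replicate 3 to 0.20 without C3a replicate 2.

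Among the other alpha subunits, 5 of 10 were tested and 0 passed at the unadjusted threshold, with 3 differences above 0 and 2 below and a median of 0.14. The largest was that of Gnao1, the Go subunit that is also sensitive to pertussis toxin. It read -0.96, -0.99 and -1.14 in the controls and -1.30, -1.13 and -1.45 with C3a, so that C3a replicate 2 lay just above the lowest control. The difference was -0.26 (standard error 0.12, unadjusted p = 0.0607, adjusted p = 0.743 by limma; unadjusted p = 0.0357 with the block), and the mean over all probes of the gene gave 0.037. Gna12 was detected on all 6 arrays, with a difference of 0.14. Its relative Gna13 was detected on 4 of 6. Gna15, the promiscuous Gq-class subunit of blood cells through which C3aR is known to signal when both are expressed, and Gnaz were detected on none. These 4 genes are named for their place beside the members.

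Of the beta and gamma subunits, which are released together from Gi, 16 of 17 were on the array and 12 were tested. There were 9 differences above 0 and 3 below, with a median of 0.11. Gng13, a gamma subunit best known from taste cells, passed the unadjusted threshold upwards with 0.38 (standard error 0.10, unadjusted p = 0.00664, adjusted p = 0.743 by limma). It read -2.83, -2.88 and -2.80 in the controls and -2.32, -2.49 and -2.55 with C3a, with no overlap (8.16% of all genes tested in this direction). The Gng13 difference was -0.067 with spike-in scaling and 0.21 with normexp (unadjusted p = 0.150 by limma). Gnb5, the beta subunit that pairs with a class of RGS proteins, passed downwards with -0.57 (standard error 0.23, unadjusted p = 0.0427, adjusted p = 0.743 by limma). Its values were -3.15, -2.40 and -3.23 in the controls and -3.72, -3.31 and -3.47 with C3a, without overlap (4.84% of all genes tested in this direction), control replicate 2 being far the highest. Without that array the difference was -0.31 (unadjusted p = 0.0708 by limma), and with normexp -0.13 (unadjusted p = 0.269 by limma). Both probes were detected on 2 of 3 controls and on all C3a arrays, so Gng13 was tested only through the group where it was higher.

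Of the regulators of alpha subunits, 25 of 26 were on the array and 13 were tested, 9 above 0 and 4 below, with a median of 0.066. Rgs6, which speeds up the inactivation of Gi and Go in the heart and binds Gnb5, passed the unadjusted threshold upwards, at 1.31, 1.10 and 1.25 in controls and 1.56, 1.42 and 1.49 with C3a. The groups did not overlap, as for 8.16% of all genes tested in this direction. The difference was 0.27 (standard error 0.10, unadjusted p = 0.0315, adjusted p = 0.743 by limma), but it was -0.056 without normalization and -0.18 with spike-in scaling. With 1 array left out the Rgs6 difference lay between 0.21 and 0.31, and missed the unadjusted threshold without control replicate 2 or 3 or C3a replicate 1 or 3. Gpsm2, which binds inactive Gi alpha, passed downwards with -0.49 (standard error 0.20, unadjusted p = 0.0492, adjusted p = 0.743 by limma). Its values overlapped, at -2.85, -2.58 and -2.94 in controls and -2.84, -3.40 and -3.58 with C3a. The difference was -0.70 without C3a replicate 1 and -0.33 without C3a replicate 3 (unadjusted p = 0.160 by limma), and -0.095 with normexp. The Gpsm2 probe was faint, detected on 2 of 3 controls and on all C3a arrays.

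Downstream of the members, 0 genes passed the unadjusted threshold by limma without the block, and Pde4b and Pde4d passed it with the block. Of the other phospholipase C enzymes 8 of 9 were on the array and 5 were tested. There was 1 difference above 0 and 4 below, with a median of -0.0074. The largest, of Plcd4, was -0.71 (standard error 0.42), from -2.22, -3.75 and -2.27 in controls to -3.11, -3.42 and -3.84 with C3a, where control replicate 2 lay among the C3a arrays. It was -0.45 without control replicate 1, -1.21 without control replicate 2 (unadjusted p = 0.00151 by limma) and -0.16 with normexp. The Plcd4 probe was faint, detected on 2 of 3 controls and on all C3a arrays. Of the IP3 receptors, the protein kinases C and D and the diacylglycerol kinases, 20 of 24 were on the array and 13 were tested. Prkca, Dgkd, Dgke and Dgkh had no matched probe. Of the differences tested, 6 lay above 0 and 7 below, with a median of -0.0097. The largest was that of Dgkz, which removes diacylglycerol, at -0.22 (standard error 0.13), with -0.13 without C3a replicate 1, -0.35 without C3a replicate 2 (unadjusted p = 0.0225 by limma) and -0.082 with normexp. Of the adenylyl cyclases and cAMP effectors, which Gs and Gi control, 21 of 22 were on the array and 14 were tested. Under the main scaling 12 differences were above 0 and 2 below, with a median of 0.14. The largest was that of Pde4b, which breaks down cAMP, at 0.33 (standard error 0.17, unadjusted p = 0.0913, adjusted p = 0.743 by limma; unadjusted p = 0.0312 with the block). It was 0.17 without control replicate 1 and 0.49 without control replicate 2 (unadjusted p = 0.0112 by limma), and was tested only through the C3a group, where it was higher. Pde4d, another such enzyme, was at 0.26 (unadjusted p = 0.0398 by limma with the block). Adcy5, Prkaca and Prkacb of this list had non-overlapping groups, all higher with C3a, 3 of 14 beside 8.16% of all genes. None passed, with unadjusted p of 0.158, 0.0749 and 0.115 and an adjusted p of 0.743 for each by limma. These 3 were named after their values were seen. Their differences were 0.14, 0.24 and 0.17, below the 0.27 of Rgs6, which turned to -0.056 without normalization and -0.18 with spike-in scaling. Both settings shift all probes alike, so these 3 differences are negative there as well. How far they depend on quantile normalization or normexp was not tested.

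**Figure D5:**
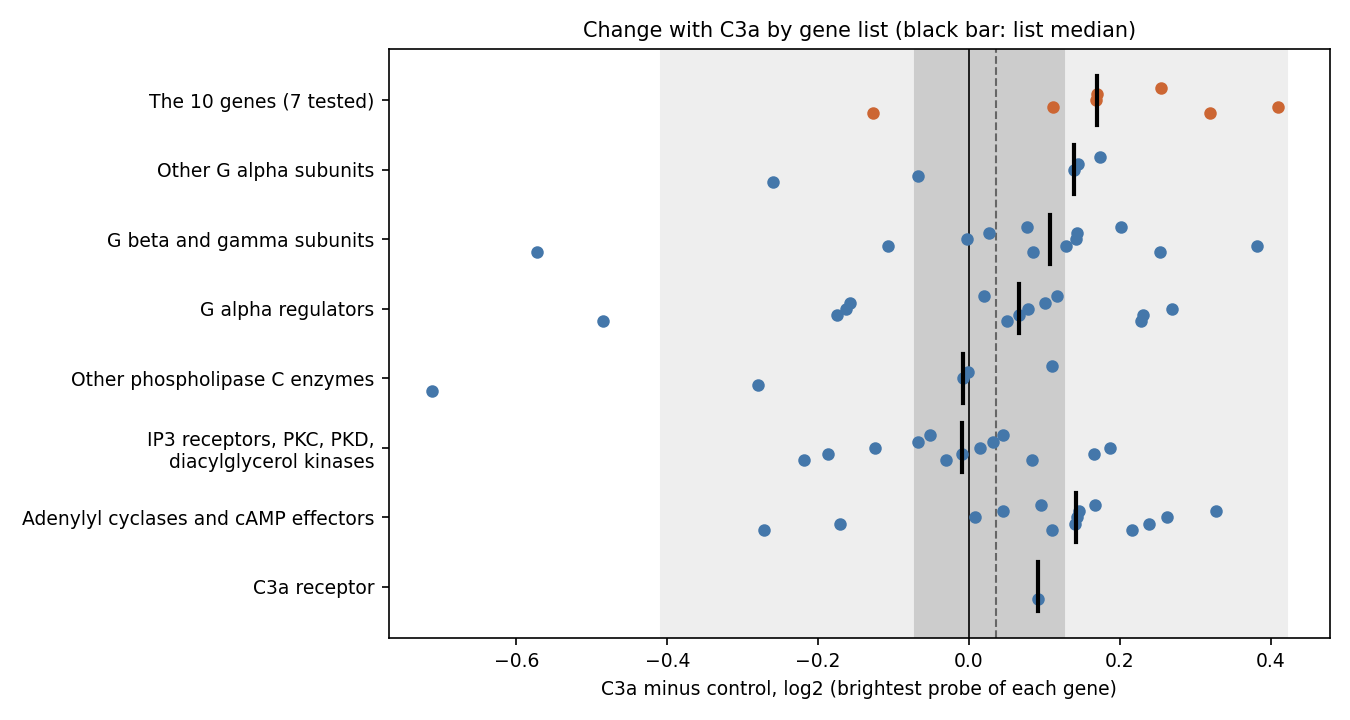
Difference with C3a minus control (log2) of every tested gene of the members and of each pathway list, as dots, with the list median as a black bar. The dashed line is the median of all genes tested (0.036), the dark band holds the middle 50% of them (-0.07 to 0.13) and the light band the range from the 2.5 to the 97.5 percentile (-0.41 to 0.42), outside which lie Gnb5, Gpsm2 and Plcd4. Each of these was faint and detected on 2 of 3 controls.

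The genes whose signals over the 6 arrays were most like those of Gnaq, by Pearson correlation, were Mkln1 (0.989), Steap3 (0.978), Adamtsl5 (0.977), Zfp64 (0.967) and Car9 (0.965). This is a description over 6 arrays among 10385 genes, of which 90 had a correlation above 0.9, and for Gnaq the lowest point was control replicate 1, where it was not detected.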

How the data were processed

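The authors deposited the scanner output of each 1-colour array as intensity values written by Agilent Feature Extraction 11.5.1.1, already background-subtracted, and a table of log2 values for 36638 probes, which set against the scanner values proved to be log2 intensity less the array's 75th percentile (correlation at least 0.99999 per array, median difference at most 0.0062). The columns of spot flags gave detection. From the 62976 spots, 4259 control spots and outlier flags were left out and spots of a probe were averaged, giving 45572 of 45598 probes with values on all 6 arrays. Accessions without version matched the GRCr8 gene table for 21085 probes (46.3%), naming 16569 symbols; the array was designed on another assembly, so coordinates are left out. A probe was well above background where at least 50% of its spots were, and the 23438 probes so on all 3 arrays of at least one group were tested (17519 qualified in controls, 23425 with C3a). No spot was saturated. The number of arrays limits the precision.

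C3a was compared with control with limma 3.58.1 (lmFit, then eBayes, two-sided, under R 4.3.3, Benjamini-Hochberg over the tested probes), without a block because the methods name none. The labels number the samples but name no pairing. Deviations from the group mean correlated at 0.281, 0.320 and 0.312 for equal numbers and from -0.255 to -0.0932 for unequal ones. Deviations cancel within a group, so the negative values follow in part from the positive ones. What arrays of equal number shared was not tested. The members, lists and tests were chosen with earlier results of these data known. Genes named were the members, every Plcb3 probe, C3ar1, list genes at an unadjusted p under 0.05 or else the largest difference of a list, and the 5 genes most alike to the member with the largest moderated t; other names were added after their values were seen. The step was tested on simulated data for C3a against control over 23438 probes. There limma called 11 of 50 probes given a log2 change of 0.5, 30 of 50 given 1, and 49 of 50 given 2 or 3. It also called 3 of 23238 unchanged ones. The simulated noise was drawn independently for each probe and array, without the correlation between arrays of equal number. The counts therefore need not hold for these arrays. Alternatives were other scalings, background correction (normexp, offset 50), filters, a variance trend, the replicate block, the methods' equal-variance test, the authors' table, and each array left out in turn. A slide or scan block was not possible with 1 slide. Figures were drawn with matplotlib 3.10.9.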

Additional observations from a re-analysis of the deposited data

How the results depend on the processing

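No member and no pathway gene passed an adjusted p of 0.05 by limma under any of the 19 alternatives. Over all probes, the adjusted threshold was passed by 4 lower probes without normalization between arrays, and by 1 higher and 15 lower with scaling to 7 E1A spike-in probes. At an unadjusted p under 0.05, the higher and lower counts (783 and 581) were 41 and 2558 without normalization and 9 and 1702 with spike-in scaling. They were 370 and 639 for probes detected on all 6 arrays, 359 and 676 with no filter, 565 and 725 with the percentile over probes detected on all 6 arrays, 709 and 803 with a variance trend, 640 and 356 with normexp, and 752 and 356 with the methods' equal-variance test. They ranged from 441 to 1263 and from 268 to 876 with 1 array left out.

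Members at an unadjusted p under 0.05 (0 in the main analysis) were 1 with normexp (Gna11), 1 with the methods' test (Gnas) and 1 with the mean over probes (Gnaq). With 1 array left out they were 0 to 2: Gnaq without control replicate 2, and Gnaq and Gna11 without control replicate 3. Pathway genes (4) were 2 with quantile normalization, 7 without normalization, 2 with normexp, 2 for probes on all 6 arrays, 1 with no filter and 1 with a variance trend, and 1 to 6 with 1 array left out.

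With the replicate number as a block, the unadjusted counts by limma were 1832 higher and 1366 lower over all probes, 0 members and 7 pathway genes, and the block changed no call at the adjusted threshold.

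The member median of 0.17 was -0.16 without normalization and -0.28 with spike-in scaling, where the median probe was at -0.28 and -0.40, and 0.092 to 0.23 with 1 array left out. Signs turned without normalization for the first Plcb3 probe (-0.070), Gnai2 (-0.16 and -0.18 for its probes), Gnai3 (-0.21), Gna11 (-0.0052), Gnas (-0.16, and -0.13 for A_44_P378484), Rgs6 (-0.056) and C3ar1 (-0.23). With spike-in scaling they turned for the first Plcb3 probe (-0.19), Gnai2 (-0.28 and -0.30), Gnai3 (-0.34), Gnaq (-0.040), Gna11 (-0.13), Gnas (-0.28, and -0.25 for A_44_P378484), Gng13 (-0.067), Rgs6 (-0.18), Pde4b (-0.12) and C3ar1 (-0.36). Quantile normalization turned Gnas (-0.017), and the mean over probes turned Plcb3 (-0.16) and Gnao1 (0.037). Which scaling is nearest the amount of RNA per cell was not tested, and the cause of these shifts was not tested. Faint probes limit what can be read for Gnaq, Gna11 and the undetected Gnai1, Plcb1 and Plcb2.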
